A study of Mus musculus with 6 samples.

Results

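Unannotated reads in the RNA-induced silencing complex (RISC) were taken as the read sequences that had no match in either annotation column of the deposited table, neither to a miRNA nor to any other listed RNA. They numbered 5911 of 143934 sequences, or 4.11%. The brains were of BL6 mice (male C57BL/6J by the methods of the study) that carried no named transgene and had no named treatment. Cortex with hippocampus was taken from 3 mice aged 2 months (2M) and from another 3 aged 18 months (18M), and every mouse gave 1 library. In Ago-RP-Seq a peptide of the protein GW182 pulls down Argonautes 1 to 4, and the bound small RNAs (R-sRNAs) are sequenced. The study asked of these libraries whether the R-sRNAs of older brains carry seeds of lower viability. Values are reads scaled to 1000000 per library (RPM). The libraries held 19272046 to 25080484 reads, and a floor of 3 reads lay at 0.120 to 0.156 RPM. Nothing in the labels ties a mouse of one age to a mouse of the other, and p-values measure the spread between these mice alone. Tissue pieces hold neurons and glia together, so that fewer cells of a type and less RNA per cell cannot be told apart. Labelled reads of miR-124-3p, which marks neurons, summed to 92539 to 134320 RPM.

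An Argonaute protein holds a short RNA and uses its seed, the bases near the 5′ end, to find partly complementary messages. Most RNAs in the RISC are miRNAs, which Dicer cuts from hairpins and which often start with U, the base that the 5′ binding pocket of Argonaute favours. Fragments of tRNA, rRNA and mRNA are loaded too. Short RNAs whose 6mer seed (read positions 2 to 7) matches survival genes can kill a cell, a process called DISE (death induced by survival gene elimination). The 6mer seed viability is the survival of transfected cells whose siRNA has that seed, as a mean of 3 mouse lines, and seeds of low viability, often rich in G, are called toxic. A read without an annotation still has a seed, and so it counts in any measure of seed viability.

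The sequences that follow are those on which the results turn, as the table gives them, 5′ to 3′ and with T for U. The first is the main read of miR-466q, in second place among all unannotated reads, beside the mature miRNA from RefSeq (GRCm38.p6, with U). Capitals mark bases 2 to 8.
miR-466q read: tGTGCACAcacacacatacgt
miR-466q, RefSeq: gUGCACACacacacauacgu
The read began 1 base upstream of the RefSeq start and ended at the same base, so its seed was GUGCAC. The mature miRNA lies at chr3:28419988-28420007 on the plus strand, in an intron of Tnik, a kinase gene of that strand.
The next reads match hairpins of Mir466f or Mir466i and are shown because the summed level of such reads was lower at 18M. They share bases 2 to 8, in capitals, and differ at the 3′ end.
Mir466f-2 read: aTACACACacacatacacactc
Mir466f-3 read: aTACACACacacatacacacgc
Mir466f-2 or Mir466i read: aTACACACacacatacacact
Mir466f-2 (GENCODE M21, GRCm38, chr2:10468675-10468768) and Mir466f-3 (chr2:10471953-10472046) lie on the plus strand in introns of Sfmbt2, a gene that carries a large miRNA cluster in the mouse. Mir466i lies at chr13:17747473-17747593 on the plus strand, inside Cdk13, which is read from the minus strand.

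A read of miR-124-3p, a miRNA abundant in neurons, is shown with the 6 single-base changes of it that had no annotation. Capitals in the first line mark the positions that change, and in the others the changed base. A change is written as the base of the annotated read, its position from the 5′ end and the base found.
miR-124-3p read: taagGCacgcGgTGaatgc
G14A: taaggcacgcggtAaatgc
T13C: taaggcacgcggCgaatgc
C6T: taaggTacgcggtgaatgc
C6A: taaggAacgcggtgaatgc
G5T: taagTcacgcggtgaatgc
G11C: taaggcacgcCgtgaatgc
A let-7c-5p read that lacked 1 of 2 neighbouring G (capitals) was the most abundant unannotated read with a missing base.
let-7c-5p read: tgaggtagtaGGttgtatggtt
let-7c-5p read with 1 G missing: tgaggtagtaGttgtatggtt
Reads from the 5′ end of arginine tRNAs are shown because their unannotated variants differed at position 9 (capital).
tRNA Arg-TCT read: ggctccgtGgcgcaatgga
Arg-TCT G9T: ggctccgtTgcgcaatgga
Arg-TCT G9C: ggctccgtCgcgcaatgga
tRNA Arg-ACG read: gggccagtGgcgcaatgga
Arg-ACG G9C: gggccagtCgcgcaatgga
Arg-ACG G9A: gggccagtAgcgcaatgga

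Unannotated reads were a small share of the RISC. They summed to 1484, 1401 and 1400 RPM in 2M replicates 1, 2 and 3 and to 1508, 912 and 1110 RPM in 18M replicates 1, 2 and 3. The lowest share was 0.0912% of the library (Wilson 95% interval 0.0900 to 0.0924, counting error only) in 18M replicate 2, and the highest was 0.151% (0.149 to 0.153) in 18M replicate 1. Both extremes thus lay among the old mice, and the ages overlapped. The mean share of the young mice was 0.143% ± 0.00486 (SD, n = 3), that of the old mice 0.118% ± 0.0304, and the difference was -0.0252 percentage points (exact two-sided permutation test, p = 0.40, where 3 against 3 can reach no less than 0.10). The reads were spread over many sequences. Only 6 members had a mean of at least 10 RPM, and 180 of at least 1 RPM held 41.2% of the reads. A core of 1873 sequences, found in all 6 libraries, held 74.6% of the reads, and 219 sequences were seen in 1 library alone.

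Some members came from 1 library. Members that shared runs of 15 bases were joined into 1145 families, and in 5 families that averaged 1 RPM or more, at least 80% of the reads lay in 1 library. These 167 sequences summed to 221 RPM in 2M replicate 3 and 30.6 RPM in 18M replicate 1, against 0.239 to 1.37 RPM in the other 4 libraries. The largest of them had 129 sequences and 116 RPM in 2M replicate 3, with at most 0.757 RPM elsewhere. Its main reads, ranks 203 and 219 by mean RPM (seeds UGUACG and AGUACG), were found at 5.48 and 5.15 RPM in that library and at 0 in the others. Both belong to the 86 members that shared their first 16 bases with an annotated read, which summed to 85.3 RPM in 2M replicate 3 and 9.64 to 12.9 RPM elsewhere. What these reads are was not tested. The comparisons by age and the mean viability are also given without these families, a choice made after seeing the data.

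The length profile of the unannotated reads was broad. Reads of 21 nt were the largest class at 21.9% ± 1.31 (SD, n = 6 libraries), followed by 22 nt at 14.8% ± 0.578 and 23 nt at 10.01% ± 1.11. miRNA reads peaked at 22 nt with 39.9% ± 0.182. Reads of 21 to 23 nt, the size that Dicer makes, were 46.7% ± 2.51 of the unannotated and 84.5% ± 0.579 of the miRNA reads, a difference of -37.8 percentage points within libraries (lower in 6 of 6, from -40.4 to -32.4; exact two-sided sign permutation, p = 0.031, the smallest that 6 libraries can give). Reads of 24 nt or more were 30.7% ± 1.07 of the unannotated and 4.05% ± 0.169 of the miRNA reads, higher in 6 of 6 libraries. Other fragments also had smaller shares of 21 to 23 nt than miRNA reads. That share was 42.8% ± 1.92 in reads with an mRNA label and no miRNA label, 53.5% ± 3.41 in tRNA and 57.5% ± 2.01 in rRNA reads. Their shares of 24 nt or more were 16.6%, 14.4% and 16.6%, each below that of unannotated reads in 6 of 6 libraries. By the labels the gel window of every library began at 19 nt, so that shorter reads lay outside it. At 15, 16 and 17 nt there were 125, 154 and 185 unannotated sequences and none with a miRNA label. Length and label were therefore not independent, and the p-value does not account for that. The unannotated reads had a second, smaller peak at 19 nt (9.76% ± 0.610) and a dip at 20 nt (2.98% ± 0.316), which miRNA reads lacked. Of the 19 nt reads, 54.3% lay 1 base from a miRNA read or hairpin and 16.2% lay 1 base from a tRNA read, against 20.4% and 0.181% at 20 nt. The 6 changes of the 19 nt miR-124-3p read alone held 55.9 of the 127 RPM at 19 nt. Members not placed, a group set out below, had 3.34% of their reads at 19 nt and 2.55% at 20 nt. Members related to a miRNA, a tRNA or a transcript had 34.8% and 4.18%.

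**Figure D1:**
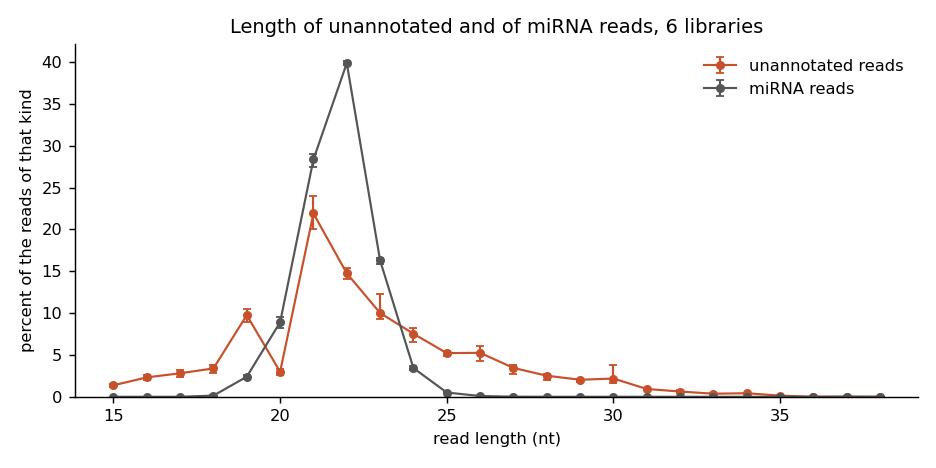
Percent of unannotated reads and of miRNA reads (y axis) at each read length in nt (x axis); points are means and bars the lowest and highest of the 6 libraries. Unannotated reads peak at 21 nt (21.9%) with a smaller peak at 19 nt (9.76%) and a tail beyond 24 nt, while miRNA reads peak at 22 nt (39.9%).

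The base content also set the unannotated reads apart from the miRNA reads in every library. U was the first base of 35.5% ± 1.85 (SD, n = 6) of the unannotated and of 73.4% ± 1.74 of the miRNA reads, a difference of -37.9 percentage points (lower in 6 of 6). G came first in 26.0% ± 1.98 of the unannotated and 2.80% ± 0.253 of the miRNA reads. The seeds held 36.8% ± 0.277 G against 24.7% ± 0.478 in miRNA reads, a difference of 12.1 points (higher in 6 of 6, from 11.3 to 12.7). G and C together made up 55.7% ± 0.259 of the bases against 45.2% ± 0.423. The dinucleotide CG, rare in mouse DNA outside CpG islands, was 9.58% ± 0.365 of all dinucleotides in unannotated reads and 3.26% ± 0.147 in miRNA reads. Other fragments were also rich in CG, with 11.1% ± 0.431 in rRNA reads, 7.67% ± 0.427 in tRNA reads and 5.82% ± 0.316 in reads with an mRNA label. Each of these 4 tested differences (first U, seed G, G with C, CG) had an exact sign permutation p of 0.031 and an adjusted p of 0.034 over the 11 measures compared with miRNA reads.

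Seeds of the unannotated reads were spread to both ends of the viability scale. The mean 6mer seed viability was 56.1 ± 0.991 (SD, n = 6) for unannotated and 57.9 ± 0.263 for miRNA reads, a difference of -1.88 that held in 6 of 6 libraries but ran from -2.67 to only -0.189 (exact p = 0.031) and was -2.33 without the 1-library families. The median went the other way. It was 57.3 to 59.8 in the unannotated and 57.3 in every library in the miRNA reads, higher by 1.05 on average and in 5 of 6 libraries (exact p = 0.0625). The library with the smallest difference in the mean was 2M replicate 3, which also held most of the reads of the 1-library families. A viability under 40 was found for 25.4% ± 1.70 of the unannotated and 13.1% ± 0.508 of the miRNA reads, and a viability of at least 70 for 30.6% ± 1.78 and 25.6% ± 1.14. Both ends were thus fuller in the unannotated reads, in 6 of 6 libraries each. Other fragments lay on both sides. Reads with an mRNA label and no miRNA label had a mean viability of 51.7 ± 1.27, below that of unannotated reads in 6 of 6 libraries, and 32.3% ± 2.78 of them were under 40, which was more in 6 of 6. Their seeds held 34.7% ± 0.795 G, less in 6 of 6 but by only 2.14 points, and their G and C content of 55.95% ± 0.883 was higher in 3 libraries and lower in 3 (exact p = 0.53). tRNA reads had a mean viability of 62.4 ± 0.823, above that of unannotated reads in 6 of 6 libraries, and rRNA reads one of 54.7 ± 0.527, below it in 6 of 6, with a mean difference of only 1.38. The median of rRNA reads, 58.1 on average, was below that of the unannotated reads in 4 of 6 libraries (exact p = 0.69). The seeds of tRNA reads (25.2% ± 1.27 G) and of rRNA reads (27.3% ± 0.943 G) held less G than those of the unannotated reads in all 6 libraries. The comparisons that held in 6 of 6 libraries each had an exact sign permutation p of 0.031.

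The members were then sorted by their relation to known mouse RNA, with groups set after seeing the data. A miRNA hairpin held 73 members without a mismatch, 637 more lay 1 base from a miRNA read or hairpin, and 55 lay 1 base from a tRNA read. These summed to means of 59.8, 164 and 28.8 RPM. Simple repeats numbered 97 (19.2 RPM), and 58 members matched a GENCODE M21 transcript on its own strand and 16 on the other strand (6.07 and 1.93 RPM). The remaining 4975 members (78.5% of the reads), 2731 that overlapped an annotated read (427 RPM) and 2244 with no relation found (596 RPM), were not placed. The label of the overlapping read was mostly mRNA, but of 999 such mRNA-labelled reads only 26 matched a GENCODE transcript on its own strand without a mismatch. The members that were not placed held 10.3% ± 0.368 CG dinucleotides and began with U in 26.8% ± 0.734 of reads, whereas those related to a miRNA, a tRNA or a transcript held 7.06% ± 0.446 and began with U in 70.7% ± 4.14 (SD, n = 6). By definition most of the related reads are in or 1 base from a miRNA hairpin or read (59.8 and 164 RPM). This contrast thus follows in part from the sorting and is no separate result about the members not placed. No genome was used here, so intergenic and intronic matches were not searched, nor were other organisms.

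**Figure D2:**
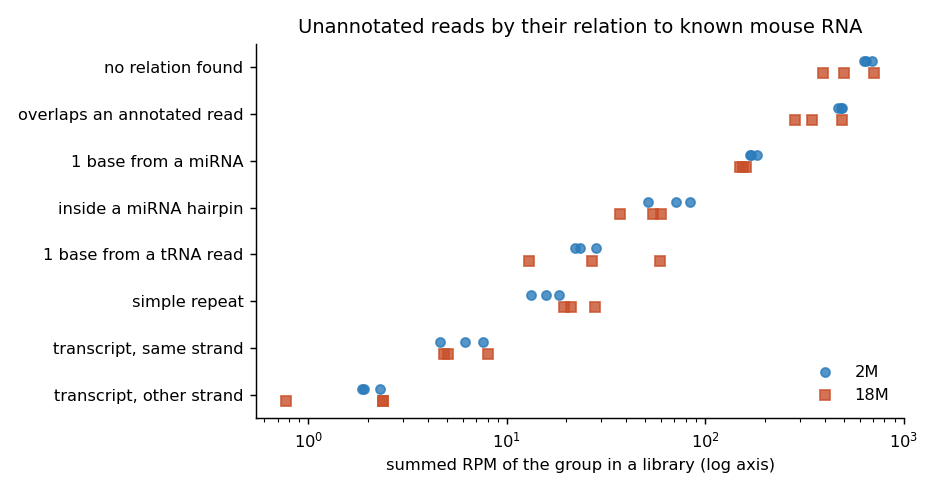
Summed RPM (x axis, log scale) of each group of unannotated reads (y axis) in the 3 libraries of 2M (circles) and the 3 of 18M (squares). Reads with no relation found and reads that overlap an annotated read are the largest groups, and only the reads 1 base from a miRNA and the simple repeats show ages that do not overlap.

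The 10 members of highest level belonged to both kinds. Rank 1 (26 nt, seed GUUAAG, seed viability 73.0) had no relation found and measured 26.4, 19.4 and 21.7 RPM at 2M and 26.4, 16.9 and 27.0 RPM at 18M, so that the ages overlapped. Rank 8 (25 nt, 8.94 RPM) had the same seed and belonged to the same family of 79 sequences, which summed to 74.9 RPM, the most of any family. Ranks 5, 6, 7 and 10 were 21 to 24 nt long, and their seeds held 4 G among 6 bases. Rank 5 had the seed GUGGCG (viability 58.4) and a mean of 12.3 RPM, and rank 6 had CGGGUG (66.9) and 10.2 RPM. Rank 7 had GCGGGU (30.9) and 9.19 RPM, and rank 10 had GUGGGC (21.4) and 8.68 RPM. Ages overlapped for all of these 6 members. Ranks 5 and 6 overlapped a read with another label and the other 4 had no relation found. Rank 2 was the miR-466q read, and ranks 3, 4 and 9 were the G14A, T13C and C6T changes of miR-124-3p.

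Reads of miRNA genes that the table had not labelled came first among the placed members. The 7 reads specific to Mir466q summed to 22.5, 24.2 and 37.8 RPM at 2M and 32.3, 13.6 and 38.5 RPM at 18M. They were high in 2M replicate 3 and in 18M replicates 1 and 3 and lowest in 18M replicate 2, and the means of 28.2 ± 8.37 and 28.1 ± 12.99 RPM (SD, n = 3) lay close together (exact p = 1.0). The table held 0 sequences labelled miR-466q. The main read made up 80.3% of the 7, and its seed viability was 54.1.

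Mir574 gave reads from its 5′ arm that were also without a label, although its 3′ arm, miR-574-3p, was labelled. The gene lies at chr5:64970318-64970395 (GRCm38, plus strand) in an intron of Fam114a1. Its 8 unannotated reads, with the main seed GAGUGU (viability 39.2), summed to 40.7, 8.17 and 16.7 RPM at 2M and 10.5, 10.4 and 9.18 RPM at 18M. A single library, 2M replicate 1, was far above the others, and the ages overlapped (exact p = 0.40). The labelled miR-574-3p reads summed to 120, 87.4 and 101 RPM at 2M and 90.5, 100.1 and 102 RPM at 18M, so that the 5′ arm was 8.25% to 25.4% of both arms. That share sets the 8 reads without a mismatch against all 39 sequences with the miR-574-3p label. Another 9 members 1 base from Mir574 (2.23 RPM on average) were left out of it. The hairpins Mir1249, Mir7045 and Mir669c stayed under 0.5 RPM on average.

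Reads specific to Mir466f or Mir466i were lower at 18M. Their 20 sequences summed to 17.004, 15.2 and 13.8 RPM at 2M and 8.04, 10.2 and 9.18 RPM at 18M. The ages did not overlap, and the means were 15.3 ± 1.62 and 9.14 ± 1.08 RPM (SD, n = 3; difference -6.18 RPM, exact p = 0.10, the smallest possible). All 3 reads printed above carry the seed UACACA, with a viability of 77.8. The RefSeq mature miR-466i-3p has the same seed. The labelled reads of the 3′ arm of miR-466f amounted to 0.0445 RPM.

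Reads 1 base from a miRNA were the largest placed group. They summed to 168, 183 and 170 RPM at 2M and 155, 160 and 149 RPM at 18M. The ages did not overlap, with means of 174 ± 8.10 and 155 ± 5.55 RPM (SD, n = 3; exact p = 0.10, adjusted p = 0.40 over the 8 groups). Substitutions were 78.2% of these reads and missing bases 21.02%. By single name, miR-124-3p was the neighbour for 48.6% of them, followed by let-7c-5p with 6.49%. Hairpin names were counted apart, with 6.17% for mir-411, 2.21% for Mir411 and 2.77% for mir-124-2. The names mir-411 and Mir411 stand for the same gene and were not joined.

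All 57 possible single-base changes of the 19 nt miR-124-3p read were in the table, and where the change lay went with the label. The 6 changes at positions 1 and 19 kept the miRNA label, the 18 at positions 2 to 4 and 16 to 18 had a label of the hairpin alone, and the 33 at positions 5 to 15 had either an mRNA label (27) or none (6). The 6 without annotation had means of 2.48 to 18.2 RPM (median 8.33) and the 27 with an mRNA label 0.398 to 24.2 RPM (median 4.50). Their levels thus overlapped. The annotated 19 nt read itself measured 14494, 14980 and 14082 RPM at 2M and 11010, 11512 and 9025 RPM at 18M. This does not hold for the miRNA as a whole. All reads labelled miR-124-3p summed to 126188, 127742 and 128952 RPM at 2M and 95824, 134320 and 92539 RPM at 18M, with overlapping ages (exact two-sided permutation p = 0.40). All 33 changes at positions 5 to 15 together amounted to 1.58%, 1.62% and 1.62% of the 19 nt read at 2M and 1.73%, 1.66% and 1.73% at 18M.

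**Figure D3:**
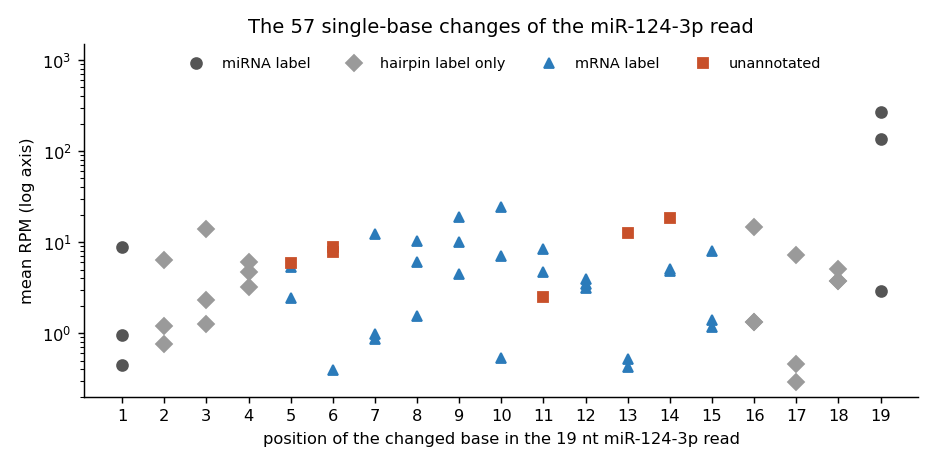
Mean RPM over 6 libraries (y axis, log scale) of each of the 57 single-base changes of the 19 nt miR-124-3p read, by the position of the change (x axis), with the symbol showing the label in the table. Unannotated changes (squares) lie at positions 5 to 14 among changes with an mRNA label, and labels of miRNA or hairpin appear only toward the ends.

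The 6 unannotated changes of miR-124-3p were lower at 18M in RPM but not relative to the annotated read. They summed to 61.3, 65.9 and 59.7 RPM at 2M and 53.0, 53.9 and 41.5 RPM at 18M (difference -12.8 RPM). Per 1000000 copies of the annotated read they came to 4226, 4401 and 4240 at 2M and 4814, 4686 and 4601 at 18M (difference 411). In both measures the ages did not overlap, in opposite directions, and each had an exact p of 0.10. The G14A read, rank 3, measured 21.1, 21.3 and 20.9 RPM at 2M and 15.7, 17.3 and 13.2 RPM at 18M, also without overlap. Its log2 fold change of -0.44 (SE 0.17) had an adjusted p of 0.42 by limma.

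Missing bases lay at a median position of 11, from 7 to 22, in 109 members. Labelled reads with a missing base were not counted. Among substitutions of the miR-124-3p read, those without annotation lay only at positions 5 to 14. Whether the positions of missing bases follow the labelling was not tested. The let-7c-5p read with 1 G missing, rank 11, measured 8.10, 10.2 and 6.20 RPM at 2M and 9.23, 7.85 and 9.87 RPM at 18M, with the ages overlapping. It came to 537 per 1000000 copies of the full read. Similar reads of let-7d-5p lacked the same G and came to 484, and a miR-219a-5p read that lacked an A at position 10 came to 877.

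Members near tRNA reads differed from them mostly at 1 position. tRNAs carry many modified bases, and position 9 is a known site of methylation on G or A. Of the 55 members 1 base from a tRNA read, 29 had a substitution at position 9, 26 of them of G, and these 29 held 82.9% of the group's reads. For the Arg-TCT read, the G9T change measured 5.10, 6.82 and 6.004 RPM at 2M and 22.6, 1.54 and 7.36 RPM at 18M. It was highest in 18M replicate 1 and lowest in 18M replicate 2, and the read without a change followed the same order there, with 62.4 and 4.31 RPM.

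Reads with a change at position 9 were counted over all labels, as a share of themselves and the unchanged read together. Reads of other lengths or with other changes were left out. The share was 35.0% to 42.2% for Arg-TCT in the 6 libraries (mean 38.0% ± 2.39, SD). It was 41.0% to 45.1% for Arg-ACG, 29.0% to 38.3% for Arg-CCG and 11.6% to 17.5% for Trp-CCA. These shares did not separate the ages (exact p of 0.70, 1.0, 0.90 and 0.30), although the Arg-TCT read itself ran from 4.31 to 62.4 RPM. At other positions the highest share for Arg-ACG was 0.631%. Arg-TCT and Arg-CCG had a second changed position (6 and 2, with 23.2% and 23.98% in the means over libraries), and those variants carried a tRNA label of their own. The changes at position 9 were split by the annotation. For Arg-ACG, G9C and G9A were unannotated (4.72 and 2.28 RPM) and G9T had an mRNA label (11.6 RPM). For Arg-TCT, G9T and G9C were unannotated (8.23 and 2.79 RPM) and G9A had an mRNA label (1.49 RPM). Whether tRNA genes with these bases exist was not looked up here.

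**Figure D4:**
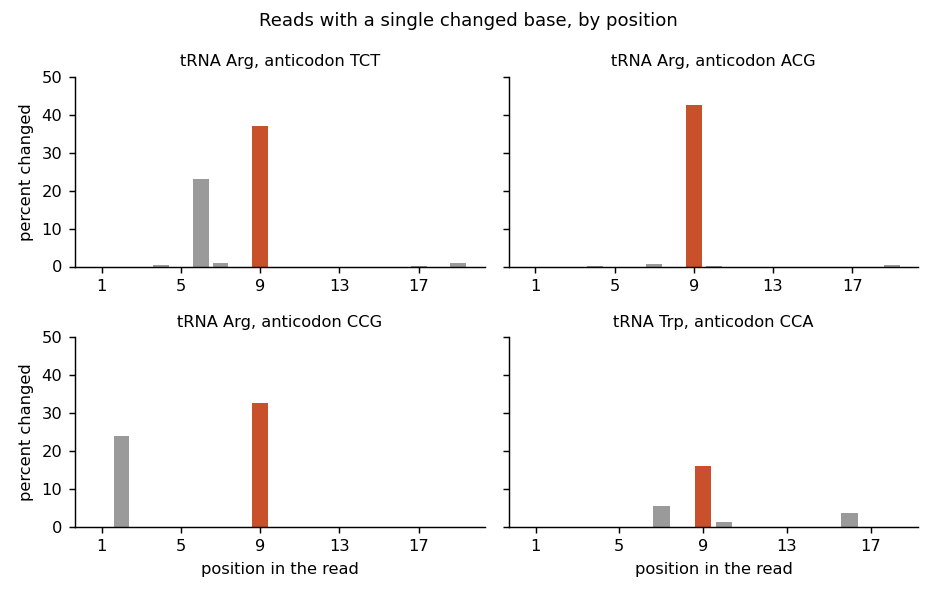
Percent of reads with a single changed base (y axis) at each position (x axis) of the 4 tRNA reads with most unannotated variants. Each is out of the reads changed there plus the unchanged read, over all labels, from the means of the 6 libraries. Position 9 (red bars) is the highest in each panel, from 16.02% in tRNA Trp to 42.6% in tRNA Arg-ACG.

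To ask which unannotated reads differ with age, all 16220 sequences averaging 1 RPM or more were fitted together with limma (log2 of RPM + 1), and 180 members were among them. None of the 180 (0) had an adjusted p below 0.05, where 0.123% of all sequences did. At an unadjusted p below 0.05 there were 12 lower and 1 higher at 18M, or 6.67% and 0.556% of the members, against 4.30% and 6.54% of all sequences (10.8% in all). Leaving out 1 library moved the 13 at that level to between 7, when 2M replicate 1 was the one omitted, and 32, when it was 18M replicate 1, and 0 were called each time. edgeR on whole reads also called 0, beside 0.0555% of all sequences, and 21 members (11.7%) had an unadjusted p below 0.05, beside 11.1%. DESeq2 called 0, beside 1.43%, and 16 members (8.89%) were at that level, beside 9.66%. Ages did not overlap for 16 lower and 3 higher members, or 8.89% and 1.67%, beside 7.94% and 9.12% of all sequences. The median log2 fold change was -0.25 over the 180 members and 0.01 over all sequences, and the members' median lay between -0.40 and -0.13 when each library was left out.

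The 5 members with the largest loss in mean RPM, at an unadjusted p below 0.05 and without overlap of the ages, were, beside the miR-124-3p G14A read, ranks 20, 48, 58 and 78. Rank 20 (25 nt, seed GCGGGU) measured 5.57, 6.66 and 10.9 RPM at 2M and 5.14, 3.41 and 3.79 RPM at 18M. Its family also held rank 7 and had no relation found. Ranks 48 and 58 (seeds GUGGCG and AGUGGC, of 24 and 22 nt) came from 1 family with rank 5 and had means of 3.88 and 3.30 RPM at 2M and 2.19 and 1.87 RPM at 18M. Rank 78 was the read of Mir466f-2 or Mir466i, with 2.62, 3.15 and 2.62 RPM at 2M and 1.87, 1.37 and 1.01 RPM at 18M. By limma its log2 fold change was -0.67 (SE 0.18, adjusted p = 0.27).

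The only gain by that rule was rank 57, a simple repeat of 24 nt with the seed AGGAGG, whose viability is 13.9. It measured 1.91, 2.07 and 1.29 RPM at 2M and 3.63, 3.45 and 3.38 RPM at 18M. By limma its log2 fold change was 0.72 (SE 0.17, adjusted p = 0.22). All 3 old mice lay above all 3 young mice. Reads built of purines alone (A and G) were, with few exceptions, outside the annotation. The table held 61 such sequences, of which 53 were unannotated, and these held 94.4% of their RPM. The 53 summed to 11.7, 11.9 and 7.44 RPM at 2M and 22.6, 17.5 and 15.9 RPM at 18M, with means of 10.3 ± 2.52 and 18.7 ± 3.50 RPM (SD, n = 3; exact p = 0.10). The 8 annotated purine reads summed to 0.595 ± 0.0381 and 1.13 ± 0.110 RPM, also without overlap. This group was chosen after its values were seen.

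**Figure D5:**
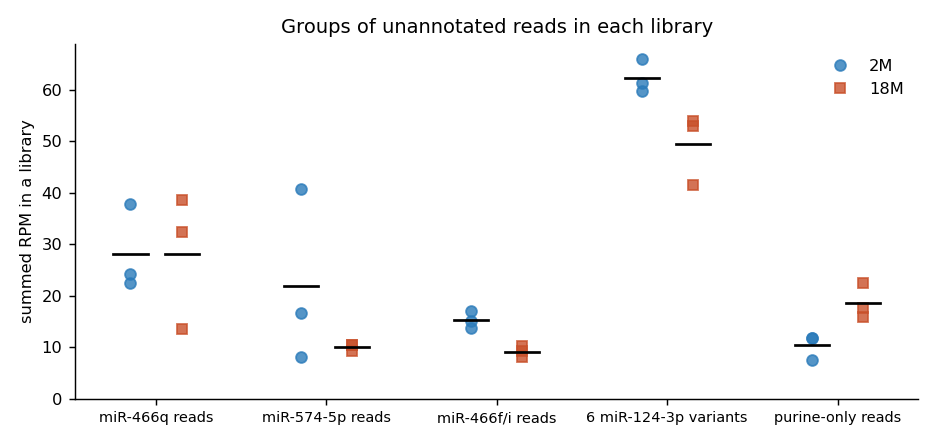
Summed RPM in each library (y axis) of 5 groups of unannotated reads (x axis) at 2M (circles) and 18M (squares), with black lines at the group means. The miR-466f/i reads and the 6 miR-124-3p variants are lower and the purine-only reads higher in all 3 old mice, while 1 young mouse sets the miR-574-5p mean apart.

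The unannotated reads were also added up by seed. The 10 seeds with most reads were GUUAAG (68.4 RPM), AAGGCA (48.2 RPM), GUGGGC (40.02 RPM), GUGCAC (29.3 RPM), GUGGCG (27.4 RPM), GCGGGU (23.4 RPM), UUUUUU (21.1 RPM), GAGGUA (19.7 RPM), GAGUGU (18.5 RPM) and AGUGGC (17.04 RPM). AAGGCA and GAGGUA are the seeds of miR-124-3p and of most let-7 miRNAs, and their unannotated reads were few beside the annotated ones, which measured 92882 to 110308 RPM and 105195 to 112127 RPM in group means. For 4 other seeds the reverse held. Annotated reads with the seed GUUAAG came to means of 17.7 RPM at 2M and 13.5 RPM at 18M, those with GUGCAC to 5.75 and 4.79 RPM, those with GAGUGU to 3.59 and 3.24 RPM, and those with UUUUUU to 0.864 and 1.03 RPM. The last seed, with a viability of 101, varied from 9.54 to 30.9 RPM within the 2M mice.

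Of 3161 seed sums fitted with limma, 249 were of unannotated reads, and 0 of these had an adjusted p below 0.05 against 0.158% of all sums. At an unadjusted p below 0.05 there were 13 lower and 4 higher, or 5.22% and 1.61%, beside 5.06% and 3.23% of all sums (8.29% in all). Leaving out 1 library moved these 17 to between 7, when 18M replicate 3 was omitted, and 46, when 18M replicate 1 was. edgeR called 0, beside 0.221% of all sums, and 28 (11.2%) had an unadjusted p below 0.05, beside 9.55%. DESeq2 called 1 (0.402%), beside 1.17%, and 16 (6.43%) were at that level, beside 7.94%. The median log2 fold change was -0.19 for the unannotated and -0.07 over all sums, and the first ran from -0.33 to -0.08 when single libraries were left out. Of the seeds with an unadjusted p below 0.05, 5 had the largest losses in mean RPM. Seeds that missed that level included larger differences, such as -13.7 RPM for GAGUGU, which measured 46.6 RPM in 2M replicate 1 and 9.85 to 19.7 RPM in the other libraries. GUGGCG had means of 32.6 and 22.2 RPM at 2M and 18M, GCGGGU of 28.02 and 18.7 RPM, and AGUGGC of 20.2 and 13.9 RPM. In these 3 seeds the ages overlapped, and 18M replicate 2 was the lowest library. UACACA, the seed of the printed Mir466f or Mir466i reads, measured 16.5, 14.2 and 14.4 RPM at 2M and 8.66, 10.7 and 9.18 RPM at 18M. By limma its log2 fold change was -0.61 (SE 0.15, adjusted p = 0.28). ACCCGU had means of 4.64 and 2.71 RPM, and for both seeds the ages did not overlap.

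At an unadjusted p below 0.05 by limma, 4 seeds were higher at 18M (1.61% of the unannotated and 3.23% of all sums). Their ages did not overlap, but they were picked by that p, and overlap was not counted over all sums. GAGGAG, with a viability of 33.8, measured 2.24, 3.39 and 3.15 RPM at 2M and 7.21, 6.87 and 5.44 RPM at 18M, so that all 3 old mice lay above all 3 young mice. By limma its log2 fold change was 0.94 (SE 0.18, adjusted p = 0.10), and edgeR gave an adjusted p of 0.105. DESeq2 on whole reads did call it (log2 fold change 1.23, adjusted p = 0.00224), and over the other 13 alternatives its adjusted p ran from 0.0801 to 0.396. Its main read is an 18 nt simple repeat of the same family as rank 57. That read measured 0.191, 0.199 and 0.191 RPM at 2M and 1.19, 1.62 and 1.14 RPM at 18M, under the minimum mean of 1 RPM, and limma called it when no minimum was set (log2 fold change 0.95, adjusted p = 0.0121), when 0.0375% of all sequences and 0.0169% of the members were called. AGGAGG measured 6.67, 8.05 and 4.10 RPM at 2M and 10.9, 9.04 and 8.59 RPM at 18M, with an adjusted p of 0.58 by limma. UGUUUC was at a mean of 1.61 RPM at 2M and 2.69 RPM at 18M, and UGCGUC at 1.54 and 2.52 RPM.

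Of 25 measures of the unannotated reads as a whole, 2 had ages without overlap, both of the first base. G was first in 25.4%, 25.1% and 23.3% of reads at 2M and in 28.8%, 25.6% and 27.7% at 18M. A was first in 23.2%, 24.8% and 23.2% at 2M and in 21.6%, 22.3% and 21.1% at 18M. The differences were 2.79 and -2.06 percentage points, each with an exact two-sided permutation p of 0.10, the smallest possible, and an adjusted p of 0.75 over the 25. The other 23 measures had overlapping ages and adjusted p-values of at least 0.75. The share of 21 to 23 nt was 47.9% ± 3.08 in young mice (SD, n = 3) and 45.4% ± 1.19 in old mice (exact p = 0.30), and the difference of -2.55 points was -1.11 without the 1-library families. The G content of the seeds was 36.96% ± 0.216 and 36.7% ± 0.325 (exact p = 0.50), and the difference of -0.227 was -0.588 without those families. The mean seed viability was 56.3 ± 1.49 and 55.8 ± 0.207 (exact p = 1.0), and without them the difference of -0.502 turned to 0.619 (exact p = 0.10). The share of the library differed by -0.0189 points without them.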

How the data were processed

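RISC-bound small RNAs of 6 libraries were analysed. The methods and labels name the steps taken by the authors: reads were demultiplexed, trimmed (Trim Galore, version not given in the sources used here), collapsed, freed of rare reads and artificial sequences, and searched with BLAST against mouse small RNA lists (SPOROS). The deposited RPM values are read counts brought by the authors to a common library total. The viability attached to each seed by the authors is used as a deposited score. In this table no per-sample column lay outside the 6 libraries. Whole reads were recovered within 0.05 of a step, and no row held fewer than 6 reads, so rarer sequences could not be seen. Molecules were not tagged, so the intervals and the floor hold for counting error alone. Between libraries the chi-square per degree of freedom was at least 10.5.

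Groups came from the titles. limma 3.58.1 in R 4.3.3 was run with a trend on log2(RPM + 1) for rows averaging 1 RPM or more. p-values were adjusted over the whole table (Benjamini-Hochberg, threshold 0.05), and fold changes on that scale understate those of low reads. edgeR 4.0.16 and DESeq2 1.42.0 were run on whole reads. Measures per library were compared between the ages by an exact two-sided permutation test, and between kinds of read within libraries by an exact two-sided sign permutation (scipy 1.17.1). miRNA reads are those with an entry in the miRNA column. Members were compared as strings with GENCODE M21 transcripts (GRCm38), with RefSeq hairpins and with the annotated reads. A 1-base relation needed 18 nt, a transcript match 19 nt, and a simple repeat had at most 4 distinct 3-base words. A genome was not used here, so the planned genome match was not run, and some matches may have copies elsewhere. Named reads were the 10 with the highest mean, the first 3 of each relation to annotated reads, and up to 5 gains and 5 losses by change in mean RPM. Named seeds followed the same rule. Members and lists were chosen with earlier results of these data known, and the origin groups, the miR-124-3p read, tRNA position 9, the hairpins, purine-only reads and 1-library families were chosen after seeing the data.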

Additional observations from a re-analysis of the deposited data

How the results depend on the processing

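Of 126 values recomputed under alternatives, 97 kept their direction and their side of the threshold. The values of the measures compared between the ages are among them, except 2 of the mean seed viability, which reversed. Exact tests of these measures could not pass 0.05 in any setting. For those measures only the direction could change. The difference in mean seed viability between the ages, -0.502, ran from -0.979 to 0.357 when single libraries were left out, positive without 2M replicate 3, and was 0.619 without the families found mainly in 1 library, a choice made after seeing the data. Against miRNA reads, leaving out single libraries gave -38.9 to -37.3 for the share of 21 to 23 nt, 12.01 to 12.3 for seed G, -38.1 to -37.5 for a first U and -2.22 to -1.72 for the mean viability, each with an exact p of 0.0625, the smallest that 5 libraries can give. Among reads of 19 to 25 nt alone the viability difference was -1.25 (exact sign permutation p = 0.0625). Counts of called reads and seeds, both 0, became 1 read of 5911 without a minimum mean, where 54 of all 143934 were called, and 1 seed of 249 by DESeq2, where 37 of all 3161 were. With the replicate number as a replicate block both counts were 0, while calls among all reads went from 20 to 0. Replicate numbers did not pair the samples (same-number correlations -0.109 to -0.0997 over reads and -0.133 to -0.0558 over seeds). With 3 mice an age, exact tests cannot pass 0.05, and members under about 0.156 RPM rest on 3 reads or fewer in the smallest library.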
